A study of Homo sapiens with 30 samples.

Results

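The genes described here are 10 targets of the transcriptional regulators YAP and SRF: ANKRD1, CCN1, CCN2, AMOTL2, LATS2, AXL, SRF, TAGLN, VCL and AJUBA. They were taken by name, with CCN1 and CCN2 also sought under their older names CYR61 and CTGF, as every probe set annotated to exactly 1 of these symbols. This gave 22 of the 54675 probe sets on the array and 10 of the 19775 genes measured. Where a gene has several probe sets, the one with the highest mean signal over all arrays stands for the gene, and the others are given beside it.

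RNA came from A375, an established human melanoma cell line that carries an activating mutation of the kinase BRAF. Cells were given 650 nM MLN4924 or, as vehicle, 0.065% DMSO, and RNA was taken after 1, 2, 4, 8 or 24 h. MLN4924 (pevonedistat) inhibits the NEDD8-activating enzyme, without which cullin-RING ubiquitin ligases are not fully active. The 10 groups of 3 Affymetrix HG-U133 Plus 2.0 arrays are therefore MLN4924 and DMSO at each of the 5 times, with separate DMSO arrays for each time. All groups are 1 cell line in serum-containing medium, and no untreated cells without DMSO are among them. Nothing in the labels says that the 3 replicates of a group were grown as separate cultures. Each p-value is therefore set against the spread of these samples alone, and that spread may be technical.

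YAP and its relative TAZ, the product of WWTR1, are coactivators that bind DNA through TEAD factors. In the Hippo pathway the kinases LATS1 and LATS2 phosphorylate them, which keeps them in the cytoplasm. SRF is a DNA-binding factor that works with the coactivators MRTFA and MRTFB, which are held back by monomeric actin and released when it polymerizes, or with the ternary complex factors downstream of ERK. Cytoskeletal tension raises both outputs in many adherent cells, and several genes, CCN1, CCN2 and ANKRD1 among them, are known as targets of both. In melanoma these programmes are known from dedifferentiated, AXL-high cells.

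The promoters of ANKRD1, CCN2 and VCL are shown because the first 2 genes were the earliest of the 10 to rise with MLN4924, while VCL rose at no time. The sequences are the 250 bases before the gene start in RefSeq (GRCh38.p14), written along the gene's strand: chr10:90921088-90921337 (minus strand), chr6:131951373-131951622 (minus strand) and chr10:73997866-73998115 (plus strand). Capitals mark the TEAD motif GGAATG and the AP-1 motif TGANTCA on either strand.
ANKRD1: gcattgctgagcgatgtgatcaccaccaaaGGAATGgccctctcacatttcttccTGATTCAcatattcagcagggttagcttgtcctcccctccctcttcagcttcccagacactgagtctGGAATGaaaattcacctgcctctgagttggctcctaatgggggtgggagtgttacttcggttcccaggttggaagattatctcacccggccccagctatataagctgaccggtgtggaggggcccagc
CCN2: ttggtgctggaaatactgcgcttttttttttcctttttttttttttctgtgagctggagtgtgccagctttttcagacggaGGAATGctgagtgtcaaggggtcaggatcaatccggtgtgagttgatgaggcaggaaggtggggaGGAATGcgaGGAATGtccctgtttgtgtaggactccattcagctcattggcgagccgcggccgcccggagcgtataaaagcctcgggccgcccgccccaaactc
VCL: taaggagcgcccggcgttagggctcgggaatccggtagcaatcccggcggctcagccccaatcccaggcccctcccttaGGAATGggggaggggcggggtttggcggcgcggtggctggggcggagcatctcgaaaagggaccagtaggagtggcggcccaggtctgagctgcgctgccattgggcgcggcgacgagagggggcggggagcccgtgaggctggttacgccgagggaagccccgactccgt
ANKRD1 holds GGAATG at positions -220 and -128 from the start base and TGANTCA at -195. CCN2 holds GGAATG at -169, -104 and -95, and VCL holds it at -171. Promoters of 8 of the 10 genes were matched, over 300 bases each from 250 before to 50 after the start, and GGAATG was found in 7 of them (all but SRF), against 14% of the 35116 promoters of the RefSeq table. The match lay at -69 in AMOTL2, -212 in AXL, -59 in AJUBA and 9 in LATS2. The starts used for AMOTL2, AXL, SRF and AJUBA lie inside the annotated gene, by 970, 7532, 1127 and 5709 bases in that order. TGANTCA was found in 1 of the 8 (ANKRD1), against 7.71% of all promoters, and the CArG box, the site that SRF binds, in 0 of 8 against 1.29%. The motifs overlapped nowhere in these windows, and a match is a run of letters, not a measured binding site. CCN1 and TAGLN are not among the matched promoters.

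Each value below is a quantile-normalized array signal without a physical unit, and each log2 change is a difference between means of log2(signal + 32) over 3 arrays per group. The standard error (SE) and the adjusted p come from limma with Benjamini-Hochberg adjustment over all 19775 genes, and a gene is said to rise or fall at an adjusted p under 0.05. The added 32 makes the changes of dim genes smaller than they were measured, and the median signal of all probe sets was 36.58. Array medians lay between 32.6 and 44 before normalization. The ratio of the 3' to the 5' probe sets of ACTB, a sign of RNA integrity, lay between 1.144 and 1.744, with DMSO 2 h replicate 1 (1.744) and replicate 2 (1.681) the highest. Of the defining markers of melanocytes, SOX10 (mean 729.1), MITF (300.5) and S100B (297) were present, whereas the pigment genes TYR (49.72), PMEL (24.44), MLANA (17.18) and TYRP1 (16.49) lay near the median of all probe sets or under it.

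With MLN4924 the target genes rose in steps and none fell. Of the 10, 0 had risen at 1 h, 2 at 2 h, 6 at 4 h, 6 at 8 h and 8 at 24 h. Over all genes, 0.00506% were called at 1 h (1 gene), 0.556% at 2 h, 3.4% at 4 h, 15.2% at 8 h and 34% at 24 h, and the share called as higher was 0.00506%, 0.344%, 1.84%, 8.35% and 15.9% at these times. The share called as lower was 0% at 1 h, 0.212% at 2 h, 1.57% at 4 h, 6.83% at 8 h and 18.1% at 24 h. At 1 h, 1 of the 10 had an unadjusted limma p under 0.05 (AJUBA, log2 change -0.15), as did 968 of all genes. The median log2 change of the 10 was 0.05 at 1 h, 0.01 at 2 h, 0.45 at 4 h, 0.67 at 8 h and 1.17 at 24 h, whereas the median of all genes lay between -0.0145 and 0.00377. In bulk RNA, fewer cells of a type and less RNA per cell cannot be told apart. At 24 h all 3 MLN4924 arrays lay above all 3 DMSO arrays for 10 of the 10 genes, TAGLN and VCL included although neither passed the test, and 44.6% of all genes had such a separation in one direction or the other. At 8 h this held for 7 of the 10 (28% of all genes), and at 4 h 6 lay above and 1, AXL, below (20.7%). At 2 h 2 lay above and 1 below (12.2%), and at 1 h 1 lay above and 1 below (9.95%).

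**Figure D1:**
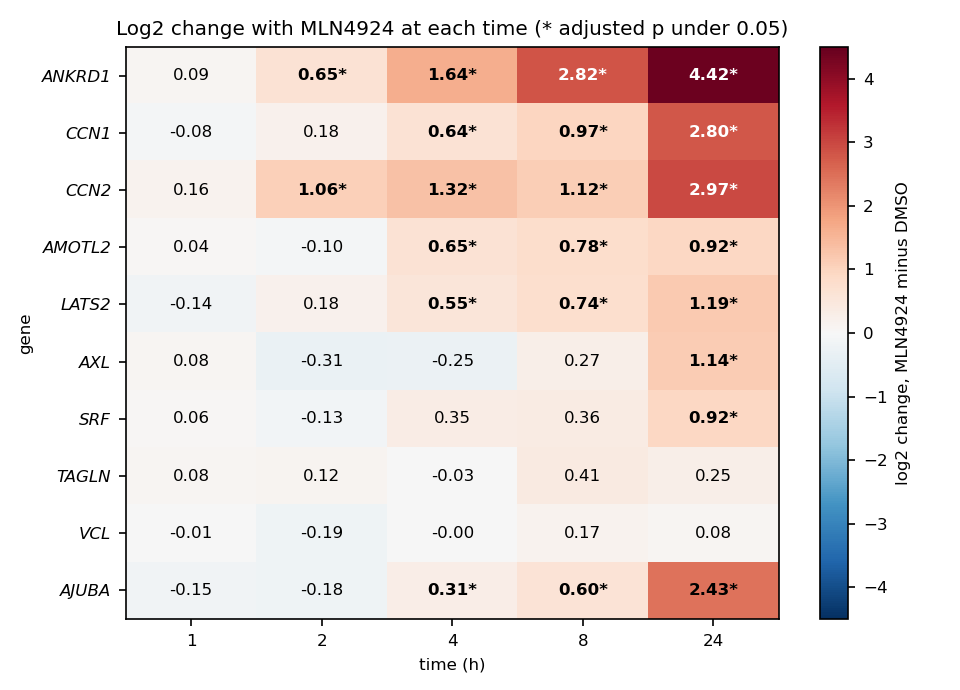
Log2 change of each of the 10 genes (rows), MLN4924 minus DMSO, at 1, 2, 4, 8 and 24 h (columns), n = 3 arrays per group; colour and number give the change, and bold type with an asterisk marks an adjusted p under 0.05. ANKRD1 and CCN2 are marked from 2 h, CCN1, AMOTL2, LATS2 and AJUBA from 4 h, AXL and SRF at 24 h, and TAGLN and VCL at no time.

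ANKRD1 had the largest log2 change of the 10 genes at 4, 8 and 24 h. It encodes an ankyrin repeat protein found in the nucleus and, in muscle, in the sarcomere, and it is one of the most used readouts of YAP. Its signals at 1 h were 103.4, 98.76 and 84.42 with MLN4924, against 84.36, 71.97 and 108.6 in DMSO, so the groups overlapped. At 2 h they were 214.9, 160 and 201.2 with MLN4924 and 90.45, 107.4 and 135.6 in DMSO, and from there on the groups stood apart. The signals at 4 h were 271.9, 343.6 and 297.3 with MLN4924 and 67.17, 94.09 and 68.13 in DMSO.

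By 8 h the ANKRD1 signals were 559.3, 636 and 562.9 with MLN4924 and 53.28, 58.57 and 53.94 in DMSO. At 24 h they were 1433, 1493 and 1598 with MLN4924, against 36.8, 42.97 and 40.1 in DMSO, which is close to the median of all probe sets. The log2 change was 0.65 (SE 0.122, adjusted p = 0.00829) at 2 h, 1.64 (adjusted p = 1.78e-09) at 4 h, 2.82 (4.82e-14) at 8 h and 4.42 (SE 0.122, adjusted p = 6.92e-19) at 24 h. With the DMSO arrays so near the median of all probe sets, the size at 24 h depends on the constant added: the log2 change of ANKRD1 was 5.21 with 1 added and 3.92 with 64. In order of level, MLN4924 at 24, 8, 4 and 2 h led without overlap, and DMSO at 8 h and then at 24 h came last. The call at 2 h was not kept in all settings: the adjusted p was 0.0845 without DMSO 2 h replicate 1, 0.0538 without MLN4924 2 h replicate 1, 0.0522 without MLN4924 2 h replicate 3 and 0.454 with only the arrays of 2 h in the fit. With the ACTB 3' to 5' ratio as a covariate the log2 change of ANKRD1 at 2 h was 0.57 (adjusted p = 0.149), and without DMSO 2 h replicates 1 and 2, an alternative chosen after seeing the data, it was 0.41 (0.677).

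CCN2, formerly CTGF, encodes a secreted matricellular protein that promotes matrix production and cell adhesion. At 2 h its signals were 2049, 2606 and 2354 with MLN4924, against 1097, 951.5 and 1276 in DMSO. At 8 h they were 1727, 1783 and 1625 with MLN4924 and 830.7, 775.4 and 709.7 in DMSO, and at 24 h they were 3110, 2967 and 2717 with MLN4924 and 354.7, 331.3 and 349.3 in DMSO. Every MLN4924 array of CCN2 lay above every DMSO array of its time from 1 h on, although the log2 change of 0.16 at 1 h did not pass the test. The log2 change was 1.06 (SE 0.101, adjusted p = 5.61e-07) at 2 h, 1.32 (3.04e-09) at 4 h, 1.12 (1.68e-08) at 8 h and 2.97 (4.1e-17) at 24 h. Its effect therefore came in steps: it was larger at 2 h than at 1 h by 0.90 (SE 0.143, adjusted p = 0.00393), did not change detectably from 2 to 4 h (0.26, adjusted p = 0.659) or from 4 to 8 h (-0.20, adjusted p = 0.619), and was larger at 24 h than at 8 h by 1.85 (adjusted p = 8.9e-10). With only the arrays of 2 h in the fit the call of CCN2 at 2 h was lost (adjusted p = 0.147). The step from 1 to 2 h lost its call without DMSO 2 h replicates 1 and 2 (0.69, adjusted p = 0.17), with the ACTB ratio as a covariate (adjusted p = 0.0736) and with only the arrays of both times in the fit (0.134).

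CCN1, formerly CYR61, encodes a secreted protein of the same family that acts through integrins. At 4 h the CCN1 signals were 1549, 1279 and 1414 with MLN4924, against 994.5, 917 and 782.3 in DMSO. At 24 h they were 4198, 4431 and 3702 with MLN4924 and 607.1, 534.8 and 547 in DMSO. The groups overlapped at 1 and 2 h and stood apart from 4 h on. The log2 change was 0.64 (SE 0.117, adjusted p = 0.00124) at 4 h, 0.97 (1.52e-06) at 8 h and 2.80 (1.75e-15) at 24 h, and the second probe set of CCN1 gave 0.67, 0.70 and 2.84. The call at 4 h was lost with only the arrays of that time in the fit (adjusted p = 0.0595). The MLN4924 arrays of CCN1 at 4 h overlapped those at 1 h (1591, 1345 and 1518), whereas the DMSO arrays at 4 h all lay below those at 1 h (1475, 1608 and 1622).

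**Figure D2:**
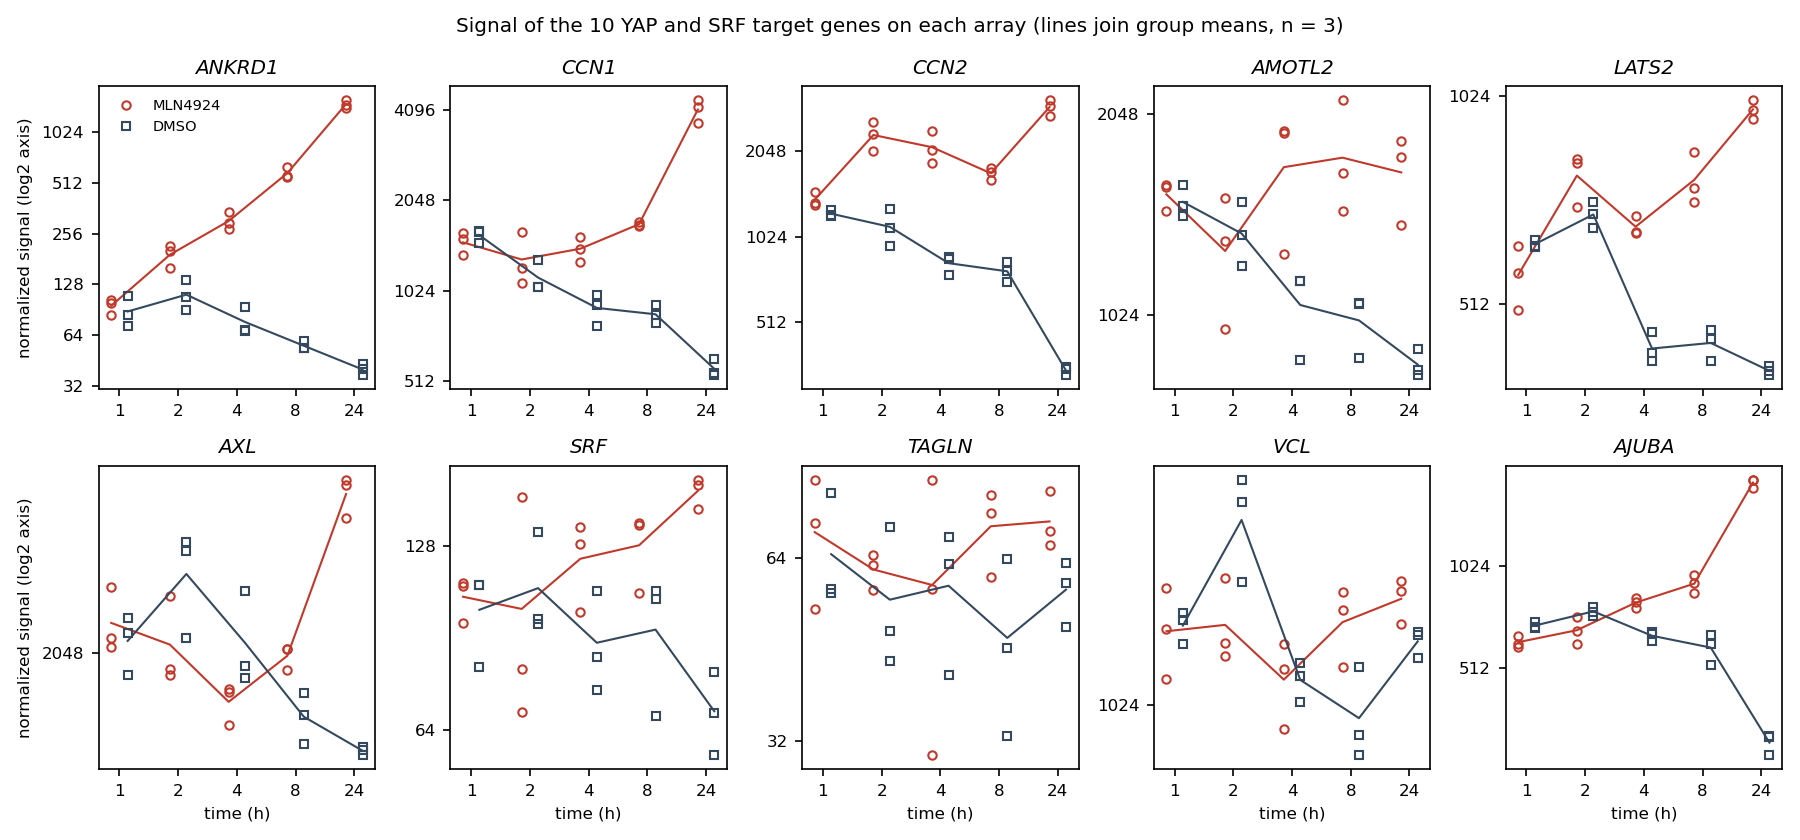
Normalized signal (vertical axis, log2 scale, each panel with its own range) of the probe set that stands for each gene, against time in h; red circles are the 3 MLN4924 arrays and blue squares the 3 DMSO arrays of a time, and lines join the group means. ANKRD1, CCN1, CCN2, LATS2 and AJUBA part widely at 24 h, where DMSO means are the lowest and MLN4924 means the highest of their panels, while VCL stays between 959.1 and 1370 on all 30 arrays.

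AMOTL2, LATS2 and AJUBA encode regulators of the Hippo pathway that are themselves induced by YAP. The angiomotin-like protein AMOTL2 binds YAP and holds it at cell junctions, LATS2 is the kinase that phosphorylates it, and the LIM protein AJUBA binds LATS kinases and restrains them. All 3 rose at 4, 8 and 24 h. The AJUBA signals at 4 h were 826.6, 771.1 and 804.3 with MLN4924 and 615.9, 655.7 and 646.7 in DMSO, and at 24 h they were 1847, 1839 and 1744 with MLN4924 and 322.9, 283.9 and 321.4 in DMSO. The order at 1 h had been the other way round, with 591.5, 605.4 and 639.6 in MLN4924 arrays, all below the 674.8, 677.8 and 702.2 of DMSO arrays, a difference that did not pass the test (-0.15, adjusted p = 0.998). The log2 change of AJUBA was 0.31 (SE 0.0721, adjusted p = 0.0125) at 4 h, 0.60 (1.44e-06) at 8 h and 2.43 (2.89e-18) at 24 h, a 5.4-fold difference. Its call at 4 h did not hold with DMSO 4 h replicate 1 left out (adjusted p = 0.0739) or MLN4924 4 h replicate 1 left out (0.0626), with the mean of AJUBA's probe sets (0.0831), or with only the arrays of 4 h in the fit (0.0858).

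The LATS2 signals at 24 h were 977.6, 949.9 and 1011 with MLN4924, against 417.1, 410.2 and 404.2 in DMSO. The 3 arrays of each group lay close together and far from the other group. The log2 change of LATS2 was 0.55 (SE 0.073, adjusted p = 1.93e-05) at 4 h, 0.74 (6.73e-08) at 8 h and 1.19 (2.2e-12) at 24 h. Another bright probe set of LATS2, 223380_s_at (mean signal 543.7), did not pass at 4 h (0.45, adjusted p = 0.0586) or at 8 h (0.29, adjusted p = 0.158). AMOTL2 was more variable: at 4 h its signals were 1930, 1265 and 1913 with MLN4924 and 1152, 1149 and 878.3 in DMSO, and at 24 h they were 1861, 1761 and 1395 with MLN4924 and 848.3, 910.6 and 831.6 in DMSO. The groups did not overlap at either time. AMOTL2 rose by 0.65 (SE 0.166, adjusted p = 0.0257) at 4 h, 0.78 (0.00173) at 8 h and 0.92 (8.08e-05) at 24 h. The adjusted p at 4 h was 0.169 without DMSO 4 h replicate 3, 0.136 without MLN4924 4 h replicate 1, 0.138 without MLN4924 4 h replicate 3 and 0.197 with only the arrays of 4 h in the fit.

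AXL encodes the receptor tyrosine kinase for GAS6, known in melanoma from drug-tolerant cells with low MITF. It rose late. At 4 h the AXL signals were 1634, 1826 and 1809 with MLN4924, all below the 1964, 1890 and 2486 of DMSO arrays, a log2 change of -0.25 that did not pass the test (adjusted p = 0.334). At 24 h they were 3125, 3529 and 3465 with MLN4924, against 1523, 1512 and 1485 in DMSO, and every MLN4924 array was higher than any of the 15 DMSO arrays of the study. The log2 change of AXL at 24 h was 1.14 (SE 0.116, adjusted p = 1.79e-08), larger than at 8 h by 0.87 (adjusted p = 0.000329). The value at 8 h was 0.27 (adjusted p = 0.13), and it passed the test when each array was centred on its median (0.47, adjusted p = 0.0119).

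Of the genes tied mainly to SRF, SRF itself rose at 24 h. The SRF signals were 164.1, 147 and 160.7 with MLN4924, against 79.65, 68.11 and 58.14 in DMSO, with no overlap, and the log2 change was 0.92 (SE 0.179, adjusted p = 0.000197). At 4 and 8 h the values of 0.35 and 0.36 did not pass the test (adjusted p = 0.408 and 0.203), and the arrays of SRF overlapped. VCL encodes vinculin, which links integrins and cadherins to actin. Its signals at 24 h were 1186, 1136 and 1201 with MLN4924 and 1125, 1121 and 1088 in DMSO, which stood apart by little: the log2 change was 0.08 (SE 0.0633, adjusted p = 0.41). At 8 h the value for VCL was 0.17 (adjusted p = 0.0683). In the test for a difference at any of the 5 times, 9 of the 10 genes passed, against 32.6% of all genes. TAGLN, by the probe set that stands for it, was the exception (adjusted p = 0.417), and VCL lay at the threshold (0.0455). The other TAGLN probe sets passed this test with adjustment over all probe sets: 205547_s_at (adjusted p = 2.84e-09) and 1555724_s_at (0.000287). When each array was centred on its median, VCL passed at 8 h (adjusted p = 0.00201) and at 24 h (0.20, adjusted p = 0.0489).

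TAGLN encodes transgelin, an actin-binding protein of smooth muscle and a classic SRF target, and its result depended on the probe set. The probe set that stands for the gene, 226523_at, gave 82.31, 70.8 and 67.25 with MLN4924 at 24 h, against 62.81, 49.31 and 58.14 in DMSO, and did not pass the test (log2 change 0.25, adjusted p = 0.358). Probe set 205547_s_at of TAGLN gave 162.3, 134.7 and 156.4 with MLN4924, against 29.78, 43.91 and 40.45 in DMSO. Probe set 1555724_s_at gave 197.6, 176.1 and 195.1 with MLN4924, against 16.31, 19.22 and 18.24 in DMSO. Both rose at 24 h: 205547_s_at by 1.39 (SE 0.0941, adjusted p = 2.76e-11 over all 54675 probe sets) and 1555724_s_at by 2.15 (SE 0.302, adjusted p = 4.61e-06). At 8 h neither passed the test (log2 change -0.06, adjusted p = 0.833, and -0.03, adjusted p = 0.983). 226523_at was chosen to stand for the gene because its mean signal over all arrays, 61.63, was the highest, but the other probe sets came close at 50.95 and 47.56. With the mean of its 3 probe sets, TAGLN rose at 24 h by 1.26 (adjusted p = 1.36e-08), and the count of risen genes is then 9 of 10. Which transcript parts the probe sets match was not analysed here.

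Over all 22 probe sets of the 10 genes, 0 had risen at 1 h, 2 at 2 h, 8 at 4 h, 8 at 8 h and 15 at 24 h, and none fell. The share of all probe sets called was 0.0201%, 0.313%, 2.05%, 9.74% and 24.8% at these times. Of the 7 not called at 24 h, 5 are dim, with mean signals of 5.26 and 18.43 (LATS2), 6.81 (AJUBA), 27.5 (VCL) and 32.39 (SRF), and the other two are those that stand for TAGLN and VCL. The brighter duplicates moved with their gene at 24 h: 202685_s_at of AXL rose by 1.24, 223380_s_at of LATS2 by 0.90, and 1553764_a_at and 225807_at of AJUBA by 2.21 and 1.15. With the mean over all probe sets of a gene, dim ones included, LATS2 at 24 h came to 0.67 and AJUBA to 1.49, both still called.

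**Figure D3:**
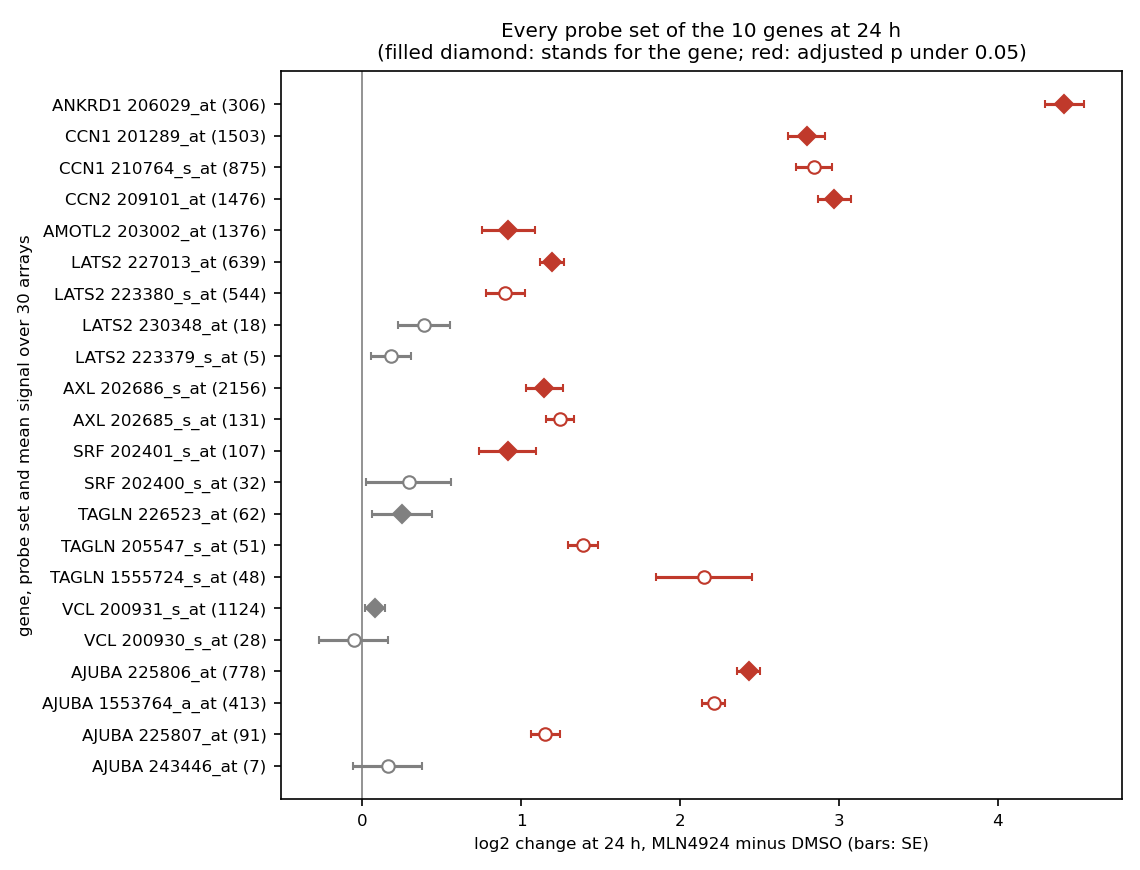
Log2 change at 24 h, MLN4924 minus DMSO (horizontal axis, bars are the SE), of each of the 22 probe sets, with the mean signal over 30 arrays in brackets; filled diamonds stand for the gene and red marks an adjusted p under 0.05. The probe set that stands for TAGLN lies at 0.25, while its other probe sets lie at 1.39 and 2.15.

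In DMSO alone, most of the same genes fell with time. Between 1 and 24 h, 7 of the 10 fell and 0 rose, where 18.4% of all genes were called, 9.93% as higher and 8.49% as lower. The median log2 change of the 10 in DMSO was -0.65, against -0.00327 for all genes. CCN2 fell by 1.75 (SE 0.101, adjusted p = 4.74e-11), with a mean of 345.1 ± 12.2 at 24 h against 1233 ± 29.7 at 1 h (SD, n = 3 each). CCN1 fell by 1.43 (4.99e-09), AJUBA by 1.07 (2.81e-10), AMOTL2 by 0.78 (0.00127), ANKRD1 by 0.73 (9.71e-05), LATS2 by 0.57 (3.33e-06) and AXL by 0.48 (0.00391). Another bright probe set of LATS2, 223380_s_at, did not pass between 1 and 24 h (-0.36, adjusted p = 0.0602) or in the test over all 5 DMSO times (0.154). SRF (-0.39, adjusted p = 0.146), TAGLN (-0.12) and VCL (-0.03) did not pass. Of the 22 probe sets 11 fell and 0 rose, and 11.9% of all probe sets were called. Over all 5 DMSO times 8 of the 10 varied, against 20.2% of all genes, the exceptions being SRF and TAGLN. For VCL the DMSO arrays of 2 h, at 1331, 1370 and 1200, had the highest mean of its 10 groups. Replicates 1 and 2, which gave 1331 and 1370, had the highest ACTB 3' to 5' ratios (1.744 and 1.681), against 1.263 for replicate 3. In the same order the AXL signals of these arrays were 2824, 2904 and 2145.

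The lower DMSO levels at 24 h enter the comparison with MLN4924 at that time. This comparison and the DMSO drift share the DMSO arrays of 24 h, so their values stand side by side and are not independent. From 1 to 24 h the level of ANKRD1 moved by 3.6 on the log2 scale with MLN4924 and by -0.73 in DMSO, and that of AJUBA by 1.52 with MLN4924 and -1.07 in DMSO. CCN1 moved by 1.45 with MLN4924 and -1.43 in DMSO, nearly equal amounts, whereas CCN2 moved less with MLN4924 (1.07) than in DMSO (-1.75). For AMOTL2 the MLN4924 level at 24 h overlapped that at 1 h (0.10), and the DMSO level had moved by -0.78. LATS2 moved by 0.77 with MLN4924 and -0.57 in DMSO, AXL by 0.58 with MLN4924 and -0.48 in DMSO, and SRF by 0.46 with MLN4924 and -0.39 in DMSO. These within-treatment changes with MLN4924 were not tested. At 24 h the MLN4924 arrays of ANKRD1, CCN1, CCN2, LATS2, AXL, SRF and AJUBA were all above every DMSO array of any time. Those of AMOTL2, VCL and the probe set that stands for TAGLN were not. The other TAGLN probe sets were above every DMSO array. For 205547_s_at the lowest MLN4924 array at 24 h was 134.7 and the highest DMSO array of any time 55.26. For 1555724_s_at these values were 176.1 and 66.76.

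**Figure D4:**
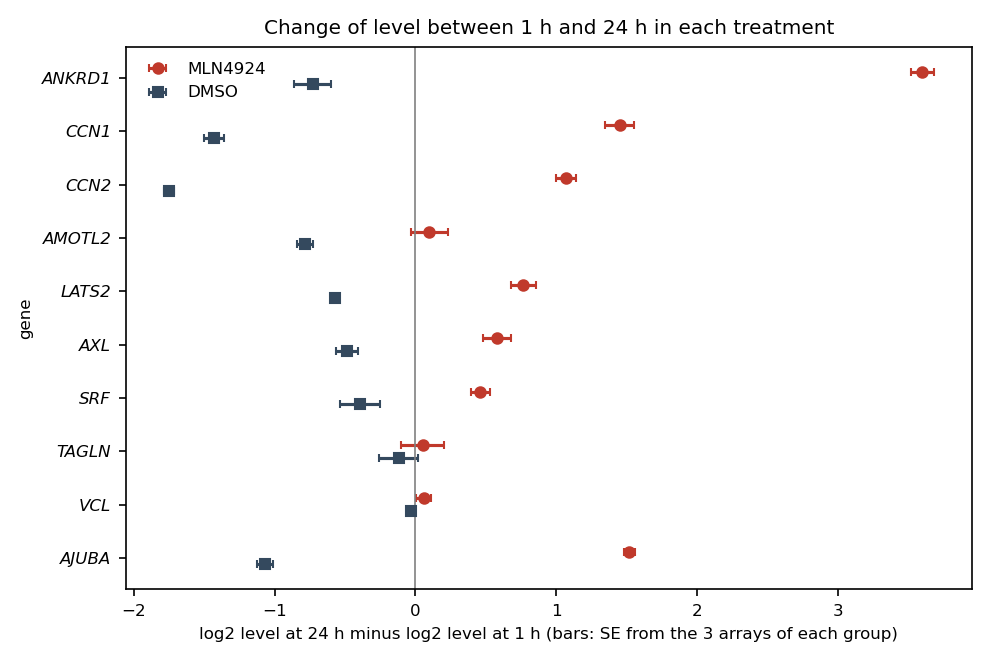
Change of level from 1 to 24 h (horizontal axis, difference of mean log2(signal + 32)) within MLN4924 (red circles) and within DMSO (blue squares) for each gene, with bars for the SE from 3 arrays per group. Circles for ANKRD1, CCN1, CCN2 and AJUBA lie at 1 or more, whereas that for AMOTL2 lies at 0.10, and squares lie at 0 or under it.

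The growth of the effect was tested between neighbouring times, which share the arrays of the time between them. The effect grew for 1 of the 10 genes from 1 to 2 h (CCN2), for 2 from 2 to 4 h, for 1 from 4 to 8 h and for 6 from 8 to 24 h, and shrank for none. The share of all genes called was 0.147%, 0.48%, 1.54% and 19.5% at these steps. The effect on ANKRD1 grew at each of the later steps, by 0.99 (SE 0.173, adjusted p = 0.00473) from 2 to 4 h, 1.19 (0.000313) from 4 to 8 h and 1.60 (1.9e-07) from 8 to 24 h. From 8 to 24 h the effect also grew by 1.83 for AJUBA (adjusted p = 3.62e-12), by 1.82 for CCN1 (1.16e-08) and by 0.45 for LATS2 (0.0022), beside CCN2 and AXL above. AMOTL2 (0.14, adjusted p = 0.772) showed no detectable growth in that interval. TAGLN showed none by the probe set that stands for it (-0.16, adjusted p = 0.776). Its other probe sets passed with adjustment over all probe sets: 205547_s_at by 1.45 (adjusted p = 3.05e-08) and 1555724_s_at by 2.18 (0.000818). From 2 to 4 h the effect on AJUBA grew by 0.49 (adjusted p = 0.0214). Both calls from 2 to 4 h were lost with only the arrays of these times in the fit (adjusted p = 0.131 for ANKRD1 and 0.147 for AJUBA). That of AJUBA was also lost with the mean of its probe sets (0.133), without DMSO 2 h replicates 1 and 2 (0.21), and with any 1 of 5 arrays left out: DMSO 2 h replicate 2 (0.0701), DMSO 4 h replicate 1 (0.08), MLN4924 2 h replicate 1 (0.0826), MLN4924 4 h replicate 1 (0.0733) and MLN4924 4 h replicate 3 (0.0546).

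Across the 10 group means the levels of most of the 10 genes ran alike. Pearson's r was 0.955 between SRF and AJUBA and 0.935 between CCN1 and AJUBA, while r of VCL with the other genes lay between 0.232 and 0.643 and was the lowest r of each of them except AXL. These are descriptions over 10 points that share arrays and normalization. Among the 1726 genes whose group means spanned at least 1 log2 unit, those most like ANKRD1 were FOSL2 (r = 0.988), DLEU1 (0.988) and CEBPG (0.986). Most like CCN1 were ETS1 (0.972), SAC3D1 (0.969) and GADD45B (0.969), and most like CCN2 were ADM (0.967), GARS1 (0.948) and CDC6 (0.946). FOSL2 is an AP-1 subunit, ETS1 a transcription factor and ADM encodes the secreted peptide adrenomedullin.

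Other targets of the same factors were called in both directions, as were genes at large, of which 15.9% rose and 18.1% fell at 24 h and 8.35% rose and 6.83% fell at 8 h. Of 22 further YAP and TEAD targets measured, 11 rose and 5 fell at 24 h (median log2 change 0.26), and at 8 h 9 rose and 3 fell. GADD45A, a growth arrest gene that p53 also controls, rose by 3.88 (adjusted p = 1.58e-19) and FJX1 by 1.01, whereas NT5E, the ecto-enzyme CD73, fell by 1.73 and the secreted binding protein IGFBP3 fell by 1.22. ASAP1, which regulates ARF GTPases, rose by 0.93 at 8 h. Of 26 further SRF and MRTF targets, 8 rose and 3 fell at 24 h (median 0.10), and at 8 h 2 rose and 1 fell. At 8 h the share that rose was near that of all genes. The falls at both times are too few to be told apart from the shares of all genes. With each array centred on its median, 6 of the 26 rose and 1 fell at 8 h. In that setting 2796 of the 19775 genes rose and 807 fell. The LIM protein gene FHL2 rose by 2.53 (adjusted p = 6.34e-17), TUFT1 by 1.88, smooth muscle actin ACTA2 by 1.74 and the actin cross-linker LIMA1 by 1.51.

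Most of the immediate early genes measured, which SRF controls with ternary complex factors, fell at 4 and 8 h. Of 13 measured, 0 were called at 1 h (median log2 change 0.08), where 0.00506% of all genes were. At 2 h 4 fell and 0 rose (median -0.07), where 0.212% of all genes fell and 0.344% rose. At 4 h 9 fell and 0 rose, with a median of -0.61, at a time when 6 of the 10 target genes had risen. Among all genes, 1.57% fell and 1.84% rose at 4 h, 6.83% fell and 8.35% rose at 8 h, and 18.1% fell and 15.9% rose at 24 h. At 8 h 7 of the 13 fell and 2 rose; FOS fell by 2.18 (adjusted p = 1.93e-08) and FOSB fell by 1.57. At 24 h 4 rose and 4 fell: the phosphatase gene DUSP1 rose by 1.49 and EGR1 by 1.03, whereas EGR3 fell by 1.34 and KLF6 fell by 1.08. The median of these 13 at 24 h was -0.10, and 0.02 when each array was centred on its median.

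Of the factors themselves, the transcript of YAP1 had a log2 change of -0.17 at 24 h (adjusted p = 0.0353), with means of 1492 ± 95.4 with MLN4924 and 1676 ± 54.3 in DMSO. WWTR1, which encodes TAZ, fell by 1.13 (SE 0.0515, adjusted p = 8.12e-15), to 2986 ± 77 with MLN4924 against 6589 ± 148 in DMSO, at the time when 8 of the 10 target genes stood higher. It had fallen by 0.32 at 8 h (adjusted p = 9.53e-05). TEAD1 rose by 0.41 and TEAD4 by 0.96 at 24 h (adjusted p = 4.9e-05 and 6.28e-05). MRTFB fell by 0.41 (adjusted p = 0.000354), and MRTFA (0.11, adjusted p = 0.47) and RHOA (-0.01, adjusted p = 0.882) did not pass. RHOB is a small GTPase gene that responds to stress. With MLN4924 it was lower than in DMSO by 0.47 at 4 h and by 0.80 at 8 h (adjusted p = 0.0131 and 1.07e-05). At 24 h RHOB was higher by 0.41 (adjusted p = 0.00445). From 1 to 24 h its mean went from 501.4 to 483.8 with MLN4924 and from 468.2 to 355.6 in DMSO. The TEAD4 mean went from 317 to 407.6 with MLN4924 and from 361.3 to 192.9 in DMSO. That of WWTR1 went from 4980 to 2986 with MLN4924 and from 5091 to 6589 in DMSO. These changes over time within a treatment were not tested. Transcript levels carry no record of protein amount, phosphorylation or place in the cell, and these were not measured.

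Among 40 measured genes of the Hippo pathway, 3 of which are AMOTL2, LATS2 and AJUBA, 16 rose and 11 fell at 24 h (median -0.02), where 15.9% of all genes rose and 18.1% fell. The scaffold gene RASSF1 rose by 2.28, SAV1, the partner of the MST kinases, by 1.21, and NF2, the junctional activator merlin, by 1.13. At 8 h 14 rose and 4 fell, where 8.35% of all genes rose and 6.83% fell, with the cadherin genes FAT1 at 0.58 and FAT4 at -0.66. Under median centring of the arrays, the 24 h median of the Hippo list turned positive, at 0.07.

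**Figure D5:**
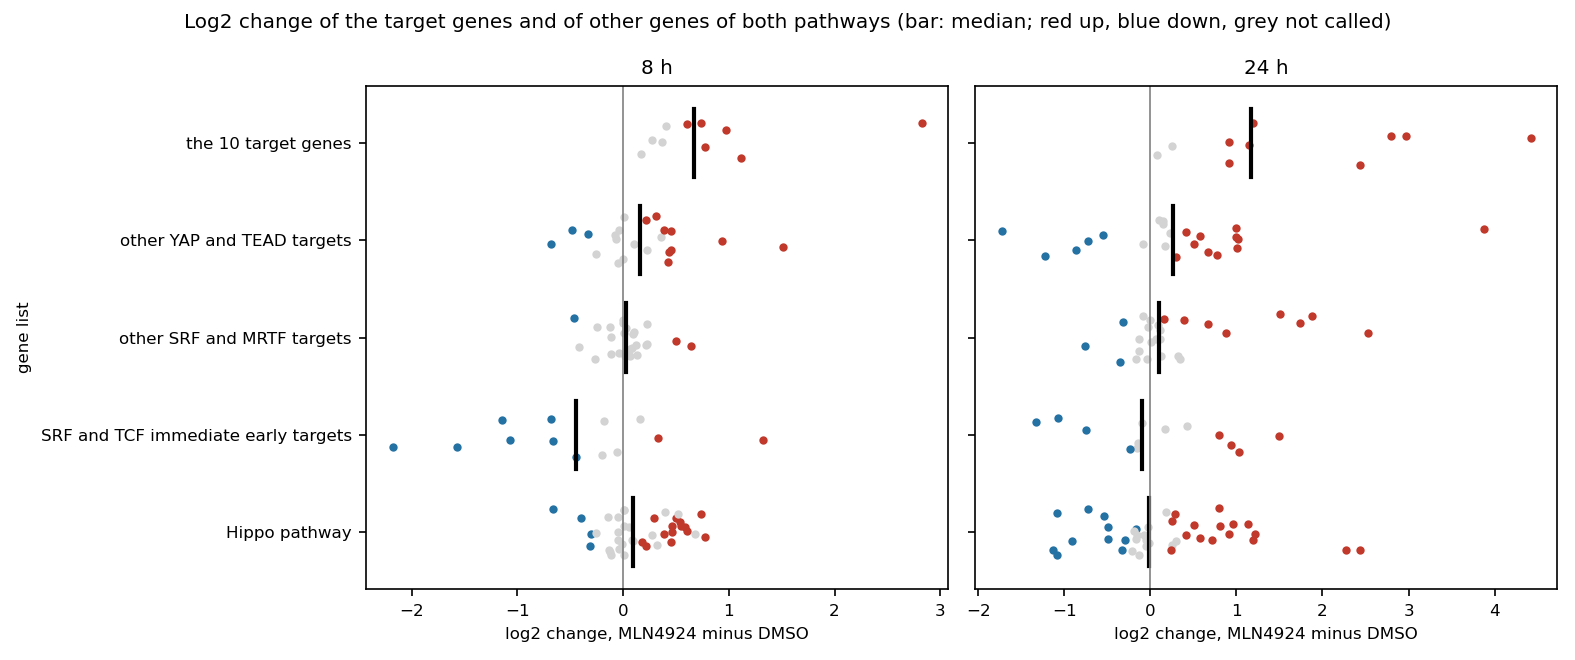
Log2 change, MLN4924 minus DMSO, at 8 h (left panel) and 24 h (right panel) of the 10 target genes and of the measured genes of 4 other lists; each dot is a gene, red risen, blue fallen, grey not called, and the black bar is the median. The 10 target genes have medians of 0.67 and 1.17, while the medians of the other lists at 24 h lie between -0.10 and 0.26.

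Markers of other cell types were read on the same arrays. Among all genes, 15.9% rose and 18.1% fell at 24 h, the time of the sums and calls below unless 1 h is named. The summed signal of 8 smooth muscle and pericyte markers at 24 h was 954.9 to 1180 with MLN4924, against 739.3 to 803.3 in DMSO. Of these, ACTA2 rose and CSPG4 fell (-0.76). The defining markers MYH11 (mean 27.07), DES (34.13) and CNN1 (4.97) were under the median of all probe sets, as was LMOD1 (15.11). Above it were CSPG4 (278.6), ACTA2 (150.3), SMTN (114.2) and RGS5 (47.47). For 8 fibroblast markers the sum was 324.2 to 368.4 with MLN4924 and 494.9 to 552 in DMSO, with 4 fallen and 0 risen. Their mean signals ran from 12.59 (COL3A1) to 146.4 (COL1A1). The 4 that fell were PDGFRA (mean 23.61), LUM (59.21), PDGFRB (17.76) and DCN (69.71). The 7 measured melanocyte markers summed to 858.7 to 945.4 with MLN4924 and 2192 to 2450 in DMSO, with 2 fallen, S100B by 3.49 and SOX10 by 1.08. Sums of 7 keratinocyte and epithelial markers were 2502 to 2865 with MLN4924 and 1952 to 2267 in DMSO, most of it KRT10 (mean 2257), with 1 risen and 1 fallen. The 6 blood and endothelial markers summed to 271.6 to 357.4 with MLN4924 and 319.9 to 354.2 in DMSO, with 1 risen. At 1 h, with MLN4924 and in DMSO in that order, the smooth muscle and pericyte sums were 572.4 to 671 and 534.6 to 727.8. The fibroblast sums were 373.8 to 404.2 and 390.3 to 438.8. Those of the melanocyte markers were 1201 to 1658 and 1486 to 1621. The keratinocyte and epithelial sums stood apart already, at 2665 to 3111 and 2197 to 2516, with 0 called. Blood and endothelial sums were 235.3 to 311.8 and 299.3 to 343.1. The part of the marker shifts at 24 h in the changes of the 10 target genes was not tested.

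How the arrays were scaled moved the balance of calls over all genes. Of the genes called at 4 h 53.9% were higher with MLN4924, and 67.8% were when each array was centred on its median, and at 8 h the shares were 55% and 77.6%. At 24 h the balance turned, from a share of 46.7% higher to 54.1%. With the signals as deposited the shares were 49.4% at 4 h, 49.7% at 8 h and 44.2% at 24 h. At 4 and 8 h the 6 target genes called were also called under median centring, where 8 of the 10 passed at 8 h.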

How the data were processed

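Total RNA of A375 cells was measured on 30 arrays, 3 per group, with groups and times taken from the labels. The deposited table holds 1 linear intensity per probe set and array. Affymetrix Expression Console is named in the submitters' processing notes, with no version, and the algorithm used in it is not stated in those notes. The deposited intensity values ran from 0 to 18206.6, 55 were 0, and each array had a mean of 150.02 once 2% of values were trimmed at either end, so arrays share a common scale. No detection calls were used.

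Of the 54675 probe sets, 41097 carried 1 gene symbol in the platform annotation, 1801 several and 11777 none, and 41043 were found in RefSeq. Quantile normalization between arrays was followed by log2(signal + 32). Of the probe sets with 1 symbol, the one of highest mean stood for its gene. limma 3.58.1 in R 4.3.3 fitted the 10 group means to the 30 arrays together, which left 20 residual degrees of freedom, and then eBayes, two-sided, with Benjamini-Hochberg adjustment per contrast over 19775 genes, or over all probe sets for values of single probe sets. The fit was tested on simulated data.

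The 10 genes, the other gene lists and the tests were chosen with earlier results of these data known. Named beside the 10 were the 4 genes of each list with the largest called change at 24 h and the 2 at 8 h, the 3 genes most like ANKRD1, CCN1 and CCN2, and 8 regulators. NUAK2, AREG, ACTG1, FHL1, FLNA, FLNC, EGR2, ARHGEF2, STARS, DCT, TP63 and CD68 were on lists and were not analysed here, and some other listed items are not reported here. The number of arrays limits the precision. No 2 arrays were duplicates (highest correlation of any pair 0.98968). Alternatives changed the scaling, the added constant, the probe sets, the low-signal filter, the fit and the arrays left out. Promoter windows came from RefSeq.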

Additional observations from a re-analysis of the deposited data

Results flagged for a closer look

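For 10 results the effect of MLN4924 differed between neighbouring times by a direct test of the difference (limma, adjusted p under 0.05), and all 10 differences were positive. They belong to 6 of the 10 target genes, each by the probe set that stands for it. The other TAGLN probe sets, 205547_s_at and 1555724_s_at, also passed from 8 to 24 h with adjustment over all probe sets. From 1 to 2 h the log2 effect on CCN2 grew by 0.90 (SE 0.143, adjusted p = 0.00393). From 2 to 4 h the effect on ANKRD1 grew by 0.99 (SE 0.173, adjusted p = 0.00473) and that on AJUBA by 0.49 (SE 0.102, adjusted p = 0.0214). These 3 calls were lost with only the arrays of the times compared in the fit (adjusted p = 0.134 for CCN2, 0.131 for ANKRD1 and 0.147 for AJUBA). From 4 to 8 h the effect on ANKRD1 grew by 1.19 (SE 0.173, adjusted p = 0.000313).

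From 8 to 24 h the effect grew by 1.60 for ANKRD1 (adjusted p = 1.9e-07), 1.82 for CCN1 (1.16e-08), 1.85 for CCN2 (8.9e-10), 0.45 for LATS2 (0.0022), 0.87 for AXL (0.000329) and 1.83 for AJUBA (3.62e-12). In this interval the DMSO group means also moved: CCN2 stood at 345.1 ± 12.2 at 24 h against 771.9 ± 60.6 at 8 h, and AJUBA at 309.4 ± 22.1 against 590.2 ± 61.9 (SD, n = 3 each).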

How the results depend on the processing

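Of 1283 values of single target genes under other settings, 1194 kept direction and side of the threshold, 52 lost a call, 9 gained one and 28 changed sign, none of these 28 a called value. All 134 alternatives of the 8 genes called at 24 h, all 102 of the 6 at 8 h and all 118 of the 7 that fell in DMSO kept their call; early calls were less firm. Replicate numbers did not pair the arrays (correlations -0.106 to 0.0736 over 15 pairs), and with the replicate block the counts stayed 0, 2, 6, 6 and 8 at 1, 2, 4, 8 and 24 h, and 8 for any time, where VCL lost its call. With only the arrays of the groups compared, the counts were 0 at 2 h, 3 at 4 h, and 0 for the steps from 1 to 2 h and from 2 to 4 h. In that setting the calls over all genes fell as well, from 110 to 10 at 2 h and from 673 to 296 at 4 h. With the ACTB ratio as a covariate the counts of target genes were 1 at 2 h and 0 for the step from 1 to 2 h, and without DMSO 2 h replicates 1 and 2 they were 1 at 2 h, 0 for the step from 1 to 2 h and 1 for that from 2 to 4 h. Over all genes the calls at 2 h were 60 with the ACTB ratio and 41 without those replicates. Leaving out 1 array at a time gave 1 to 2 at 2 h and 1 to 2 for the step from 2 to 4 h, and averaged probe sets gave 1 for that step. With 1 added to the signal, 5 of 22 probe sets passed at 4 h. Without probe sets whose name ends in _x_at or _s_at, AXL, SRF and VCL have none, and 6 of the remaining 7 passed at 24 h. VCL for any time had an adjusted p between 0.0023 and 0.851 over 39 settings. Small uncalled values that changed sign were, at 1 h, VCL 0.021 (deposited signals), 0.071 (median centring) and 0.067 (probe sets averaged), CCN1 0.0045 (median centring) and LATS2 0.016 (probe sets averaged). With 1 array left out at a time the 1 h values ran from -0.052 to 0.031 for VCL, -0.051 to 0.12 for SRF, -0.0070 to 0.21 for ANKRD1, -0.0033 to 0.13 for AXL and -0.028 to 0.21 for TAGLN. At 2 h averaged probe sets gave 0.014 for SRF and 0.044 for VCL, SRF had 0.0091 without DMSO replicates 1 and 2, and leaving out 1 array gave -0.40 to 0.047 for SRF and -0.24 to 0.073 for AMOTL2. At 4 h VCL had 0.040 (deposited), 0.099 (median centring) and 0.017 (ACTB ratio), TAGLN had 0.052 (probe sets averaged) and 0.0091 (ACTB ratio), and leaving out 1 array gave -0.034 to 0.044 for VCL and -0.25 to 0.21 for TAGLN. At 8 h VCL had -0.15 (probe sets averaged), and TAGLN in DMSO from 1 to 24 h ran from -0.18 to 0.0020 with 1 array left out. The cause was not tested.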
